A study of Mus musculus with 36 samples.

Results

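The fibril-associated collagens are the collagens that sit on the surface of other collagens' fibrils instead of forming fibrils themselves. Here they are 7 genes, Col9a1, Col9a2, Col9a3, Col12a1, Col14a1, Col16a1 and Col22a1, which were taken by family name, with earlier results of these data known. Each gene had 1 row among the 30048 RefSeq transcript rows of the RNA count tables. For the DNA, every covered CpG cytosine within the 7 gene bodies and 5000 bases to either side was taken, which gave 462 of 1444973 tested cytosines at 4 weeks and 420 of 1273121 at 12 weeks.

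Articular cartilage of tibial plateaus and femoral condyles came from male C57BL/6J mice operated on at the age of 12 weeks, when the medial meniscus of the right knee was destabilized (DMM) to induce osteoarthritis (OA) as it follows joint injury. The unoperated left knee served as the control, so there was no sham surgery, and a response of the whole animal or a change in loading of the other leg would be present in the control too. Collection took place 4 or 12 weeks later. Each week had 3 RNA libraries per limb and, from other mice, 3 DNA samples per limb, and each pooled the cartilage of 3 knees. Tissue collected at 12 weeks came from older mice than tissue collected at 4 weeks, so age, time after surgery and time of processing cannot be told apart.

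Collagen fibrils of hyaline cartilage are built mainly of type II collagen, with type XI collagen inside and type IX collagen on the surface. Type IX collagen is made of the chains encoded by Col9a1, Col9a2 and Col9a3. It is cross-linked to type II collagen and binds other matrix proteins, among them cartilage oligomeric matrix protein and the matrilins, and mutations in its genes cause multiple epiphyseal dysplasia and early OA. Types XII and XIV collagen sit mostly on fibrils rich in type I collagen, in tendon, ligament, fascia and the surface layers of cartilage, and are each made from a single gene. Type XVI collagen is found in the matrix around chondrocytes and fibroblasts, and type XXII collagen marks tissue junctions such as those of muscle with tendon and of cartilage with joint fluid.

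In GRCm38, the build to which the files refer as mm10, the genes lie on different chromosomes except for Col9a2 with Col16a1 and Col14a1 with Col22a1. Col9a1 (NM_007740) spans chr1:24177589-24252738 on the plus strand with 3888 exonic bases. Col9a2 (NM_007741) spans chr4:121039566-121055325 on the plus strand with 2746 exonic bases, and Col9a3 (NM_009936) spans chr2:180598102-180622192 on the plus strand with 2846 exonic bases. Col12a1 spans chr9:79598987-79721141 on the minus strand. Its count row carries the retired accession NM_007730, and the length of 11719 exonic bases is that of the current transcript NM_001290308. Col14a1 (NM_181277) spans chr15:55307644-55520803 on the plus strand with 6447 exonic bases. Col16a1 (NM_028266) spans chr4:130047817-130099277 on the plus strand with 5206 exonic bases, and Col22a1 (NM_027174) spans chr15:71795795-72150979 on the minus strand with 6128 exonic bases.

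The upstream sequences of the genes differ in CG dinucleotides, where methylation is measured, and in CCGG, the site at which the reduced representation protocol cuts DNA. Those of Col9a1, Col9a2 and Col16a1 are shown as examples of a window poor in CG, an intermediate one and the richest. All are from GRCm38, cover the 250 bases before the annotated start of the gene on its own strand, and carry each CG in capitals.
Col9a1, chr1:24177339-24177588, plus strand: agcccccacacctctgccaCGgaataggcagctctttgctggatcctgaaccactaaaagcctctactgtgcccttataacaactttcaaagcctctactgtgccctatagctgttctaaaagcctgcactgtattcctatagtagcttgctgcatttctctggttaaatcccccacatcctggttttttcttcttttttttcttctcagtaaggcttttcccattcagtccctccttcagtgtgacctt
Col9a2, chr4:121039316-121039565, plus strand: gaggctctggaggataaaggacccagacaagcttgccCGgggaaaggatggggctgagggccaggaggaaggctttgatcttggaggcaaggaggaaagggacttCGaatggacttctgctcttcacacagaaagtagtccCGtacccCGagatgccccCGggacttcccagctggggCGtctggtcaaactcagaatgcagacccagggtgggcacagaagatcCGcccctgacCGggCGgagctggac
Col16a1, chr4:130047567-130047816, plus strand: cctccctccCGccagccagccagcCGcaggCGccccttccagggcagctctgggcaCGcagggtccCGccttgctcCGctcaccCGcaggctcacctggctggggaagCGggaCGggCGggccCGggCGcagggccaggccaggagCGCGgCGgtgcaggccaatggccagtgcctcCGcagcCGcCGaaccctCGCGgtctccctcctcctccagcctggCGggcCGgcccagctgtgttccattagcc
The window of Col9a1 held 1 CG and no CCGG, that of Col9a2 held 9 CG and 3 CCGG, and that of Col16a1 held 22 CG and 2 CCGG. The windows of Col14a1 and Col12a1 held 10 and 6 CG and 1 CCGG each, and those of Col9a3 and Col22a1 held 6 and 1 CG and no CCGG. Among 32851 upstream windows of the same length in the RefSeq promoter table of GRCm38, which are laid out by transcript and contain 3 of the 7 genes, the median was 6 CG and 47.1% held CCGG. Within these windows, 10 cytosines of Col9a2 and 22 of Col16a1 had enough reads to be tested at each week, counting both strands, and the windows of the other 5 genes had none, those of Col14a1 and Col12a1 with a CCGG included. These windows precede the outermost start of each gene. The start regions described with the DNA data are laid out from the start of the transcript measured. For Col12a1, whose row is retired, the start of the current transcript stands in, and that of the counted transcript is not known. The starts used for Col12a1 and Col22a1 lie inside the gene, at 79718722 on chromosome 9 and 72034227 on chromosome 15. The start regions hold tested cytosines of Col9a3 and Col12a1 too.

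RNA libraries held 27706547 to 62737656 counts. The cartilage label was checked against 10 chondrocyte markers, all of which had counts. Their summed level was 16953 to 40488 CPM (counts scaled to a common library size) in the control and 14315 to 21533 CPM in the DMM libraries at 4 weeks, and 11261 to 32927 CPM and 22791 to 37072 CPM at 12 weeks. Chad and Prg4 together held most of this sum in every library. Markers of other tissues were present as well. The 10 skeletal muscle markers summed to 5446 to 19655 CPM in the control and to 457 to 3263 CPM in the DMM libraries at 4 weeks, without overlap, and to 80.3 to 14242 CPM and 486 to 10511 CPM at 12 weeks. The 8 markers of fibroblasts and synovium summed to 2282 to 4258 CPM in the control and 4323 to 6932 CPM in the DMM libraries at 4 weeks, and to 4166 to 8496 CPM and 5925 to 8395 CPM at 12 weeks. The sum of the 8 osteoblast and osteocyte markers was higher in all DMM libraries, at 3491 to 5715 CPM in the control and 7118 to 8143 CPM in the DMM libraries at 4 weeks, and 2406 to 3685 CPM and 4334 to 5920 CPM at 12 weeks. Of the 8 single markers, 6 had a higher and 2 a lower mean at each week. Ibsp was the largest part of the sum in every library. The sum of the 5 markers of hypertrophic chondrocytes was higher in all DMM libraries as well, at 6135 to 7197 CPM and 8872 to 11650 CPM at 4 weeks and 5216 to 7629 CPM and 8538 to 11156 CPM at 12 weeks, with 4 and 5 of the 5 at a higher mean. Spp1 held most of that sum. The summed markers of endothelium, adipocytes and bone marrow and blood overlapped between the limbs at both weeks. The 9 bone marrow and blood markers summed to 9900 to 37950 CPM, and at 12 weeks all 9 had a lower mean in DMM (median log2 difference -0.43). In bulk tissue, fewer cells of a type and less RNA per cell cannot be told apart.

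Levels between genes are compared per kilobase of exonic sequence. In 4-week control cartilage Col9a3 was highest, at 58.4 ± 19.9 CPM per kilobase (SD, n = 3), followed by Col9a2 at 27.9 ± 10.2. Next came Col22a1 at 9.24 ± 3.44, Col16a1 at 7.75 ± 3.63, Col9a1 at 4.08 ± 2.86, Col14a1 at 2.54 ± 1.502 and Col12a1 at 1.88 ± 0.440 CPM per kilobase. The ranges of Col22a1, Col16a1 and Col9a1 overlapped, as did those of Col9a1, Col14a1 and Col12a1. In 12-week control cartilage the 4 highest genes kept their order, and Col12a1, at 1.52 ± 0.550, Col9a1, at 1.43 ± 1.34, and Col14a1, at 0.637 ± 0.198 CPM per kilobase, followed. At 12 weeks the ranges of Col9a3 and Col9a2 overlapped, as did those of Col22a1 and Col16a1. So did the ranges of Col12a1 and Col9a1 and those of Col9a1 and Col14a1.

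**Figure D1:**
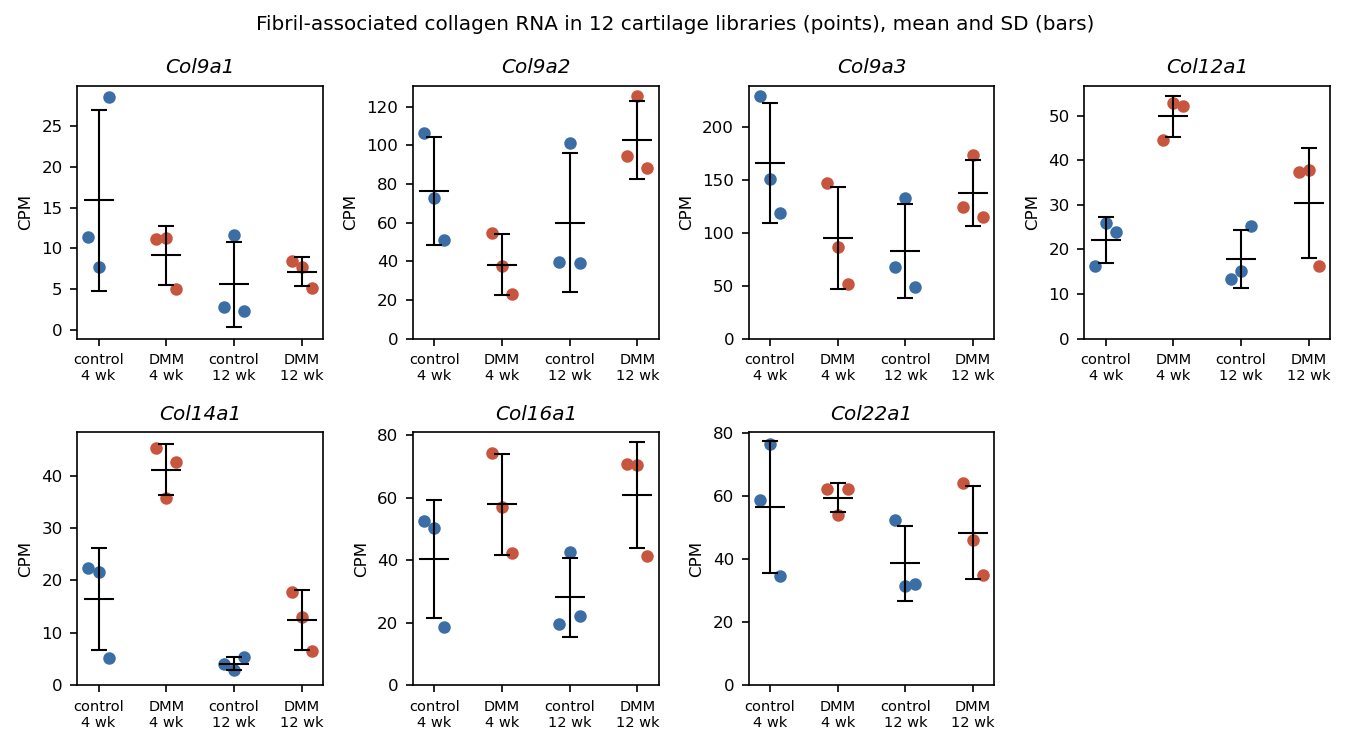
Each panel plots 1 gene, with CPM (counts scaled to a common library size) on the vertical axis from 0 and the 4 groups on the horizontal axis. Points are libraries, blue for control and red for DMM, and bars give the mean and SD of 3 libraries. Col12a1 at 4 weeks and Col14a1 at both weeks have every DMM point above every control point.

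The type IX chains had lower means in DMM than in control cartilage at 4 weeks and higher means at 12 weeks, but none of these differences passed the test. The 10 chondrocyte markers had the same direction, with 8 of 10 lower at 4 weeks (median log2 difference -0.62) and 10 of 10 higher at 12 weeks (median 0.55), while the 9 bone marrow and blood markers were all lower at 12 weeks. The part of either list in the result was not tested. Col9a2 measured 106, 72.6 and 50.8 CPM in the 4-week control libraries and 54.4, 37.5 and 22.9 CPM in the DMM libraries. The highest DMM library exceeded the lowest control library, so the groups overlapped at their edges. The edgeR log2 difference of DMM minus control was -0.99 (SE 0.37, adjusted p = 0.332 with the quasi-likelihood test). At 12 weeks Col9a2 measured 39.4, 101 and 39.2 CPM in the control and 94.8, 126 and 88.1 CPM in the DMM libraries. Control replicate 2 lay among the DMM libraries and the other two controls lay well below them. The log2 difference was 0.78 (SE 0.38, adjusted p = 0.347).

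Col9a3 followed Col9a2. It measured 229, 151 and 119 CPM in the control and 147, 86.6 and 51.9 CPM in the DMM libraries at 4 weeks, and 67.1, 133 and 48.4 CPM against 124, 173 and 115 CPM at 12 weeks. The groups overlapped at both weeks, at 12 weeks again through control replicate 2. The log2 differences were -0.80 (SE 0.40, adjusted p = 0.392) and 0.74 (SE 0.36, adjusted p = 0.340). Over the 12 libraries, log2 CPM of Col9a2 and Col9a3 correlated at r = 0.839, where the points share libraries and their cell content. The summed chondrocyte markers were highest in control replicate 1 at 4 weeks and, among the 12-week controls, in replicate 2, as were both genes. With 1 library left out at a time, the 4-week log2 difference of Col9a3 ranged from -1.27, without DMM replicate 1, to -0.49, without DMM replicate 3, and the 12-week value was lowest without control replicate 3, at 0.45, and highest without control replicate 2, at 1.22.

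Col9a1, whose product is the third chain, was the least abundant and the most uneven of the trio. It measured 11.4, 7.68 and 28.5 CPM in the 4-week control and 11.2, 11.3 and 4.97 CPM in the DMM libraries. Control replicate 3 held the highest value of all 12 libraries, although it held the lowest 4-week control values of Col9a2 and Col9a3. At 12 weeks it measured 2.82, 11.6 and 2.26 CPM in the control and 8.49, 7.73 and 5.16 CPM in the DMM libraries. The log2 differences were -0.81 (SE 0.52, adjusted p = 0.464) and 0.36 (SE 0.62, adjusted p = 0.786), with overlapping groups at both weeks. Both moved with single libraries. Without control replicate 3 the 4-week value was -0.07 (adjusted p = 0.916), and without control replicate 3 the 12-week value was -0.0212 (adjusted p = 0.991).

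Counts per exonic base give ratios between the RNA of the 3 genes within a library, free of scaling between libraries. They depend on the transcript length used and on coverage along the transcript, and are not proportions of protein chains. The ratio of Col9a3 to Col9a2 was 2.08, 2.004 and 2.26 in the 4-week control and 2.61, 2.23 and 2.18 in the DMM libraries. At 12 weeks it was 1.64, 1.26 and 1.19 in the control and 1.26, 1.33 and 1.26 in the DMM libraries. The limbs overlapped at both weeks (exact permutation p = 0.3 and p = 0.8, two-sided), while all 6 libraries of 4 weeks lay above all 6 of 12 weeks. The ratio of Col9a1 to Col9a2 was 0.0759 and 0.0747 in 4-week control replicates 1 and 2, 0.397 in replicate 3, and 0.145 to 0.213 in the DMM libraries. At 12 weeks it was 0.0406 to 0.0806 in the control and 0.0414 to 0.0633 in the DMM libraries.

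Relative to Col2a1, the gene of the type II collagen that carries type IX collagen, the chains Col9a2 and Col9a3 were lower in DMM cartilage at 4 weeks without overlap. Per 100 Col2a1, in counts per exonic base, Col9a2 measured 18.9, 15.2 and 13.4 in the control and 6.98, 6.77 and 7.65 in the DMM libraries, and Col9a3 measured 39.3, 30.4 and 30.3 in the control and 18.2, 15.1 and 16.7 in the DMM libraries. In 4-week libraries 10.8% of all rows tested were lower relative to Col2a1 in the same way. Col2a1 was taken as the reference with its values known, so these ratios are a description with no test. It was 1 of only 2 of the 10 chondrocyte markers with a higher mean in DMM at 4 weeks. Col2a1 itself measured 885 ± 172 CPM in the control and 1018 ± 449 CPM in the DMM libraries (SD, n = 3 each), with a log2 difference of 0.21 (SE 0.38, adjusted p = 0.802). At 12 weeks the groups overlapped for both chains. Col9a2 then measured 10.7, 19.4 and 20.6 in the control and 12.1, 14.5 and 17.2 in the DMM libraries, and Col9a3 measured 17.6, 24.4 and 24.5 against 15.3, 19.2 and 21.7, at a week when 35.5% of all rows were lower relative to Col2a1 without overlap. Col9a1 overlapped at both weeks.

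**Figure D2:**
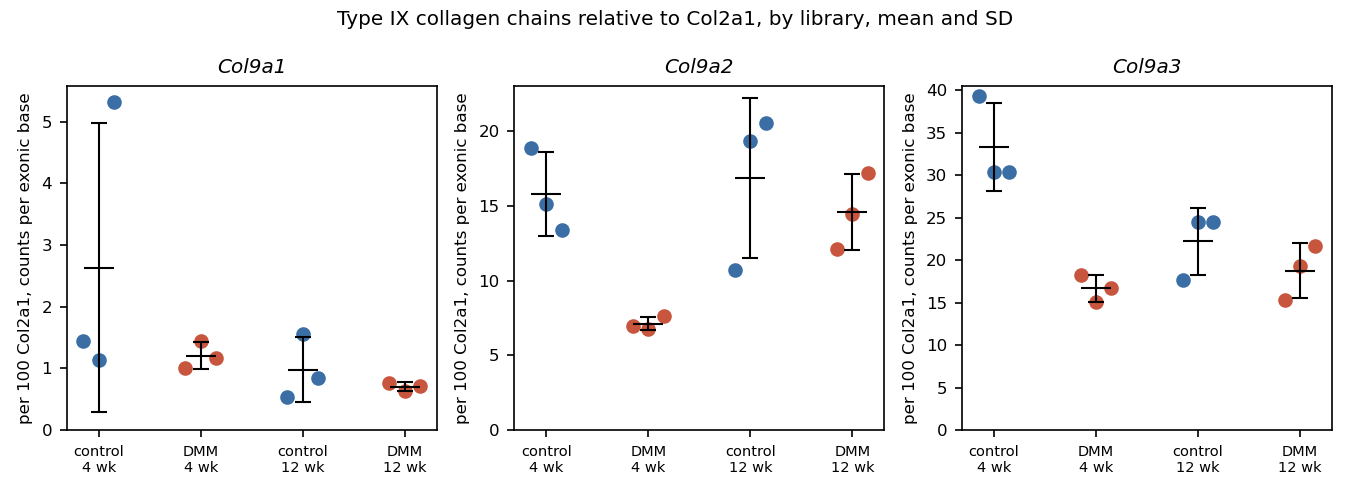
Each panel plots 1 type IX chain per 100 Col2a1, both in counts per exonic base, by group. Points are libraries and bars the mean and SD of 3 libraries. At 4 weeks the 3 DMM points of Col9a2, from 6.77 to 7.65, and of Col9a3, from 15.1 to 18.2, lie below all control points.

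Col12a1 and Col14a1 had higher means in DMM cartilage at both weeks. In edgeR neither passed at either week, and DESeq2 called Col12a1 at 4 weeks and Col14a1 at 12 weeks. Col12a1 measured 16.2, 26.0 and 24.02 CPM in the 4-week control libraries and 44.5, 52.9 and 52.2 CPM in the DMM libraries. Every DMM library lay above every control library. The log2 difference was 1.17 (SE 0.22), with an adjusted p of 0.192 in edgeR and 0.000767 in DESeq2. In edgeR 69 of 21140 rows had a p as small as that of Col12a1 (0.000673) or smaller. At 12 weeks Col12a1 measured 13.3, 15.1 and 25.2 CPM in the control and 37.3, 38.0 and 16.2 CPM in the DMM libraries. DMM replicate 3 lay among the controls, and the log2 difference was 0.78 (SE 0.37), with an adjusted p of 0.336 in edgeR and 0.211 in DESeq2.

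Col14a1 measured 22.4, 21.6 and 5.23 CPM in the 4-week control and 45.2, 35.7 and 42.6 CPM in the DMM libraries. Control replicate 3 was low, and the DMM libraries were above all controls. The log2 difference was 1.33 (SE 0.47, adjusted p = 0.320 in edgeR and 0.0941 in DESeq2). At 12 weeks Col14a1 measured 4.05, 2.86 and 5.41 CPM in the control and 17.9, 13.0 and 6.48 CPM in the DMM libraries. The groups again did not overlap. The log2 difference of 1.62 (SE 0.40) had an adjusted p of 0.211 in edgeR and 0.00414 in DESeq2. Relative to the counts of Col1a1, both Col12a1 and Col14a1 overlapped between the limbs at both weeks (exact permutation p = 0.2 or 0.3, two-sided).

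The summed fibroblast and synovium markers given above moved with Col12a1 and Col14a1 at 4 weeks, and so did the summed markers of osteoblasts and osteocytes and of hypertrophic chondrocytes at both weeks. Their part in the result was not tested. Of the 8 fibroblast and synovium markers none passed the edgeR test at either week, while 3 at 4 weeks and 5 at 12 weeks had an unadjusted p under 0.05 and DESeq2 called 3 and 4, all higher. Every DMM library lay above every control for 5 of the 8 at each week, and below for 1 at 4 weeks. Over all rows, 21.2% and 18.8% did not overlap. The summed fibroblast and synovium markers overlapped at 12 weeks, where Col1a1 held most of the sum. Col1a1 then measured 5708 ± 2289 CPM in the control and 5343 ± 658 CPM in the DMM libraries (SD, n = 3 each). The 5 tendon and ligament markers summed to 85.2 to 270 CPM in the control and 202 to 379 CPM in the DMM libraries at 4 weeks, and to 86.2 to 113 CPM and 117 to 231 CPM, without overlap, at 12 weeks. Thbs4 held most of that sum, at 89.3 ± 13.4 CPM in the control and 159 ± 49.2 CPM in the DMM libraries at 12 weeks. Every DMM library lay above every control for 3 of the 5 at 4 weeks and for 1, Thbs4, at 12 weeks. No marker of either list was at 0 in any library. The part of the tendon and ligament markers was not tested either. Tnmd, a gene of tendon cells, measured 2.65, 3.37 and 1.10 CPM in the 4-week control and 8.12, 11.3 and 67.9 CPM in the DMM libraries, and was among the 3 genes that ran most like Col12a1 over the 12 libraries (r = 0.886).

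Col16a1 measured 52.4, 50.1 and 18.5 CPM in the 4-week control and 74.4, 57.0 and 42.2 CPM in the DMM libraries, with overlapping groups and a log2 difference of 0.53 (SE 0.39, adjusted p = 0.512), which was 0.17 without control replicate 3 (adjusted p = 0.717). At 12 weeks it measured 19.6, 42.7 and 22.1 CPM in the control and 70.7, 70.4 and 41.3 CPM in the DMM libraries. A single pair overlapped, control replicate 2 and DMM replicate 3. The log2 difference of 1.12 (SE 0.34) had an adjusted p of 0.244 in edgeR and 0.0267 in DESeq2.

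Col22a1 had the smallest log2 difference at 4 weeks, and at 12 weeks one close to that of Col9a1. It measured 58.7, 76.5 and 34.6 CPM in the 4-week control and 62.3, 54.1 and 62.2 CPM in the DMM libraries, and 52.5, 31.6 and 32.0 CPM against 64.2, 46.0 and 35.0 CPM at 12 weeks. The log2 differences were 0.08 (SE 0.28, adjusted p = 0.908) and 0.33 (SE 0.28, adjusted p = 0.549). Leaving out DMM replicate 1 brought the 12-week value to 0.05, and leaving out control replicate 1 brought it to 0.59, the extremes over the 6 libraries. The skeletal muscle markers, which belong to a tissue whose junction with tendon holds type XXII collagen, were lower in every 4-week DMM library, and their part in the level of Col22a1 was not tested.

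In the edgeR test none of the 7 genes passed at 4 weeks, when 0.0757% of 21140 rows passed, or at 12 weeks, when 0.00476% of 21010 rows passed. At an unadjusted p under 0.05 there were 3 of the 7 at 4 weeks, Col9a2, Col12a1 and Col14a1, among 2891 rows, and 2 at 12 weeks, Col14a1 and Col16a1, among 3430 rows. DESeq2 called Col12a1 at 4 weeks, with 3.44% of rows called, and Col14a1 and Col16a1 at 12 weeks, with 4.24% of rows called. The groups did not overlap for 2 of the 7 at 4 weeks, both higher in DMM, where 21.2% of all rows did not overlap, and for 1 of the 7 at 12 weeks, where 18.8% did not.

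**Figure D3:**
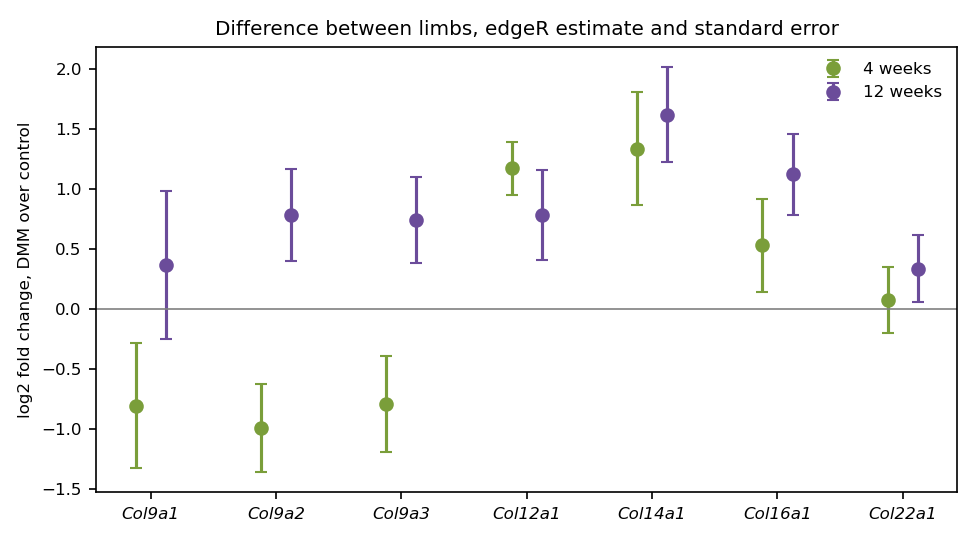
The vertical axis gives the edgeR log2 fold change of DMM over control and the horizontal axis the 7 genes, green for 4 weeks and purple for 12 weeks, with bars for 1 standard error. The type IX genes lie below 0 at 4 weeks and above 0 at 12 weeks, and the other 4 genes lie above 0 at both.

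Leaving out 12-week control replicate 2, which held the highest control value of each type IX gene and of Col16a1, brought 4 of the 7 past the edgeR test at 12 weeks, all higher in DMM. Without it the log2 differences were 1.46 for Col9a1 (adjusted p = 0.0428), 1.36 for Col9a2 (adjusted p = 0.0324), 1.22 for Col9a3 (adjusted p = 0.0369) and 1.51 for Col16a1 (adjusted p = 0.0334). In that fit 860 rows passed, against 1 with all libraries. It held fewer controls than DMM libraries, and taking out the highest control of a gene widens its difference by construction. No other single library left out at 12 weeks brought any of the 7 past the test. The summed chondrocyte markers of control replicate 2 were the highest of the 3 controls, at 32927 CPM, and its part in the result was not tested.

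The question whether the difference between the limbs changed from 4 to 12 weeks was asked by the interaction of limb and week. It was largest for Col9a2, at 1.78 on the log2 scale (SE 0.58, edgeR adjusted p = 0.405), and for Col9a3, at 1.53 (SE 0.59, edgeR adjusted p = 0.405). None of the 7 passed, and 0% of 21618 rows did, although 2656 rows had an unadjusted p under 0.05. DESeq2 called none of the 7 either, with an adjusted p of 0.227 for Col9a2 and 0.292 for Col9a3. The log2 values of the other 5 genes lay between -0.40 for Col12a1 and 1.15 for Col9a1, and all 5 moved with single libraries. That of Col9a1 was 0.40 without 4-week control replicate 3 and 2.29 without 12-week control replicate 2, and that of Col12a1 was -0.08 without 12-week control replicate 3.

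Within DMM cartilage, 12-week against 4-week libraries, Col9a2 rose by 1.38 on the log2 scale (SE 0.29, adjusted p = 0.0113) and Col14a1 fell by 1.77 (SE 0.31, adjusted p = 0.00684), the only 2 of the 7 that passed, where 23.8% of 20951 rows did. DESeq2 called both, too. Marker lists moved between these libraries as well. The summed chondrocyte markers were higher in every 12-week than in every 4-week DMM library, as the ranges above show, with 8 of 10 higher and 3 of them passing. Chad and Prg4, which held most of that sum, had DMM means of 6860 and 6618 CPM at 4 weeks and 10441 and 13379 CPM at 12 weeks. Of the 8 fibroblast and synovium markers 6 were lower, 4 of them passing, and 2 were higher, both passing (median log2 difference -1.16, against -0.03 over all rows), while their sums overlapped. All 5 endothelial and all 5 adipocyte markers were lower, 4 and 3 of them passing. The summed osteoblast and osteocyte markers were lower in every 12-week DMM library, with 4 of the 8 lower and 4 higher. Ibsp, the largest part of that sum, measured 5830 ± 455 CPM in the 4-week and 2856 ± 653 CPM in the 12-week DMM libraries. All 10 skeletal muscle markers were higher and all 5 tendon and ligament markers lower, with 0 passing and overlapping sums. The part of these lists in the changes of Col9a2 and Col14a1 was not tested. Col12a1 had a log2 difference of -0.75 (edgeR adjusted p = 0.0779), which was -0.45 without 12-week DMM replicate 3. Within control cartilage, Col14a1 had a log2 difference of -2.01 (SE 0.55) for 12 against 4 weeks, with an adjusted p of 0.123 in edgeR and 0.00373 in DESeq2. edgeR called 0% of 21222 rows in that comparison, with 4507 at an unadjusted p under 0.05, and DESeq2 called 11.7% of its rows. Without 4-week control replicate 3, the low library of that group, Col14a1 passed in edgeR too, at -2.43 (adjusted p = 0.0104), in a fit in which 3926 rows passed.

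The genes whose log2 CPM over the 12 libraries ran most like a given gene were sought among 10930 other genes with a mean of at least 5 CPM. For Col14a1 they were Clec3b (r = 0.986), Lrrc17 (r = 0.986) and Mamdc2 (r = 0.984), of which Clec3b is also one of the fibroblast markers, and for Col9a2 Pfkl (r = 0.976), Chrdl2 (r = 0.972) and Trpv4 (r = 0.970). For Col9a3 they were Grb14, Slc35e3 and Smpd1 (r = 0.934 to 0.965), and for Col16a1 Lpin3, Col6a1 and Glis2 (r = 0.952 to 0.958). Those of Col12a1 were Olfml3, Ccdc50 and Tnmd (r = 0.886 to 0.905), and those of Col22a1 were Igfbp5, Man1a and Ano1 (r = 0.891 to 0.919). Col9a1 had the lowest values, with Taf10, Cnmd and Elavl1 (r = 0.849 to 0.863). Col14a1 and Col12a1 ran together at r = 0.774 and Col14a1 and Col22a1 at r = 0.790, whereas Col9a2 and Col12a1 gave r = -0.363.

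The collagens that form the fibrils themselves had mostly higher means in DMM. Of 11 such genes, 8 had a higher and 3 a lower mean log2 value at 4 weeks (median 0.14, against -0.03 over all rows), and 9 were higher and 2 lower at 12 weeks (median 0.71, against 0.01 over all rows). None passed in edgeR, although 2 higher and 1 lower at 4 weeks and 7 higher at 12 weeks had an unadjusted p under 0.05. DESeq2 called 1 higher at 4 weeks and 3 at 12 weeks. Over all rows, 2891 of 21140 at 4 weeks and 3430 of 21010 at 12 weeks had an unadjusted edgeR p under 0.05. DESeq2 called 3.44% and 4.24% of rows. The smallest p at 4 weeks belonged to Col5a1 (log2 difference 0.92), Col5a2 (0.72), Col11a2 (-0.85) and Col3a1 (1.48), and at 12 weeks to Col3a1 (2.29), Col5a1 (0.99), Col27a1 (1.12) and Col24a1 (0.73). Col5a1 and Col3a1 encode chains that regulate the width of type I fibrils.

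Among 20 other proteins of the fibril surface, 14 were higher and 6 lower at 4 weeks (median 0.42) and 18 higher and 2 lower at 12 weeks (median 0.91), with no edgeR call at either week. An unadjusted p under 0.05 was found for 6 higher and 4 lower at 4 weeks and for 13 higher and 1 lower at 12 weeks, and DESeq2 called 6 and 12, all higher. Over all rows, 2891 of 21140 and 3430 of 21010 had such a p, and DESeq2 called 3.44% and 4.24%. At 4 weeks Lum, Matn2, Postn and Aspn had the smallest p, with log2 differences of 2.27, 1.93, 1.96 and 2.21. At 12 weeks these were Thbs3 (1.46), Lum (1.68), Fmod (2.06) and Ecm1 (1.35). Lum, Aspn and Fmod encode small leucine-rich proteoglycans that bind fibrils, and Postn an adhesive matrix protein. Comp, a partner of type IX collagen and also 1 of the chondrocyte markers, had a log2 difference of -0.57 at 4 weeks (adjusted p = 0.560) and of 1.004 at 12 weeks (adjusted p = 0.221 in edgeR and 0.00998 in DESeq2), with the same signs as the type IX genes. The matrilins were mixed. Matn1 (-1.24 and 0.13) and Matn3 (-2.98 and 0.13) had these signs at 4 and 12 weeks. Matn2 (1.93 and 1.43) and Matn4 (0.33 and 1.87) were higher in DMM at both.

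Of 17 genes that modify and cross-link collagen, 8 were higher and 9 lower at 4 weeks (median -0.04) and 17 higher and none lower at 12 weeks (median 0.51), again with no edgeR call at either week. An unadjusted p under 0.05 was found for 2 higher and 1 lower at 4 weeks and for 7 higher at 12 weeks. DESeq2 called none at 4 weeks and 3 at 12 weeks. Over all rows, 2891 of 21140 at 4 weeks and 3430 of 21010 at 12 weeks had such a p, and DESeq2 called 3.44% and 4.24%. The smallest p at 4 weeks belonged to Loxl1 (0.70), Pcolce (0.90), Lox (-0.85) and Colgalt2 (-0.90), and at 12 weeks to Pcolce (1.32), P4ha3 (1.93), Loxl2 (1.58) and Loxl3 (0.50). Pcolce enhances removal of the carboxy-terminal propeptide of fibril-forming collagens, and the Lox family makes cross-links. Of 7 collagen receptors 6 had a row and were tested, and 5 of the 6 were higher at each week (medians 0.45 and 0.51), with no edgeR call and with 2 and 1 at an unadjusted p under 0.05. Ddr2, a receptor kinase for fibrillar collagen, had the smallest p at both weeks (0.90 and 0.63). It was the only one that DESeq2 called, at 4 weeks (adjusted p = 0.0326). Itgb1, Itga2 and Ddr1 followed at 4 weeks (0.58, 0.49 and -0.65), and Ddr1, Itga11 and Itga1 at 12 weeks (0.49, 0.53 and -0.42).

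The remaining genes of the family that had a row were barely present. These were Col19a1 and Col20a1, which together measured 0.244 to 2.14 CPM in any library. Col21a1, also on the list, had no row, so nothing was read of it. Col20a1 was lower in every 4-week DMM library, with a log2 difference of -1.52 (adjusted p = 0.252 in edgeR and 0.0435 in DESeq2), at a mean of 1.02 CPM in the control and 0.354 CPM in the DMM libraries. At 12 weeks its log2 difference was 0.44 (adjusted p = 0.647).

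DNA methylation was read at single cytosines, with 5-methylcytosine (5mC) as the percentage of reads left unconverted after oxidation and bisulfite treatment (oxBS). In the 7 genes and their flanks the coverage per library and cytosine ranged from 10 to 295 reads at 4 weeks (median 56) and from 10 to 196 reads at 12 weeks (median 39). Col16a1 held the most tested cytosines, 155 and 145, and Col14a1 the fewest, 21 and 24. Col12a1 held 84 and 75, Col9a2 61 and 46, Col9a3 55 and 53, Col22a1 45 and 40, and Col9a1 41 and 37.

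The start regions, from 1000 bases before to 500 bases after the transcript start, were close to unmethylated where they could be read. At 4 weeks mean 5mC in control cartilage was 1.53% ± 0.603 over 62 cytosines of Col12a1, 1.80% ± 0.810 over 28 of Col16a1, 4.74% ± 1.70 over 14 of Col9a2 and 5.57% ± 1.14 over 36 of Col9a3 (SD, n = 3). Gene bodies were higher. They measured 35.2% ± 1.22 for Col9a2, 41.5% ± 1.97 for Col9a3, 49.3% ± 3.47 for Col9a1, 53.1% ± 5.39 for Col14a1, 56.2% ± 0.640 for Col12a1, 58.2% ± 3.63 for Col16a1 and 76.8% ± 1.82 for Col22a1. The start regions of Col9a1, Col14a1 and Col22a1 had fewer than 5 tested cytosines.

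**Figure D4:**
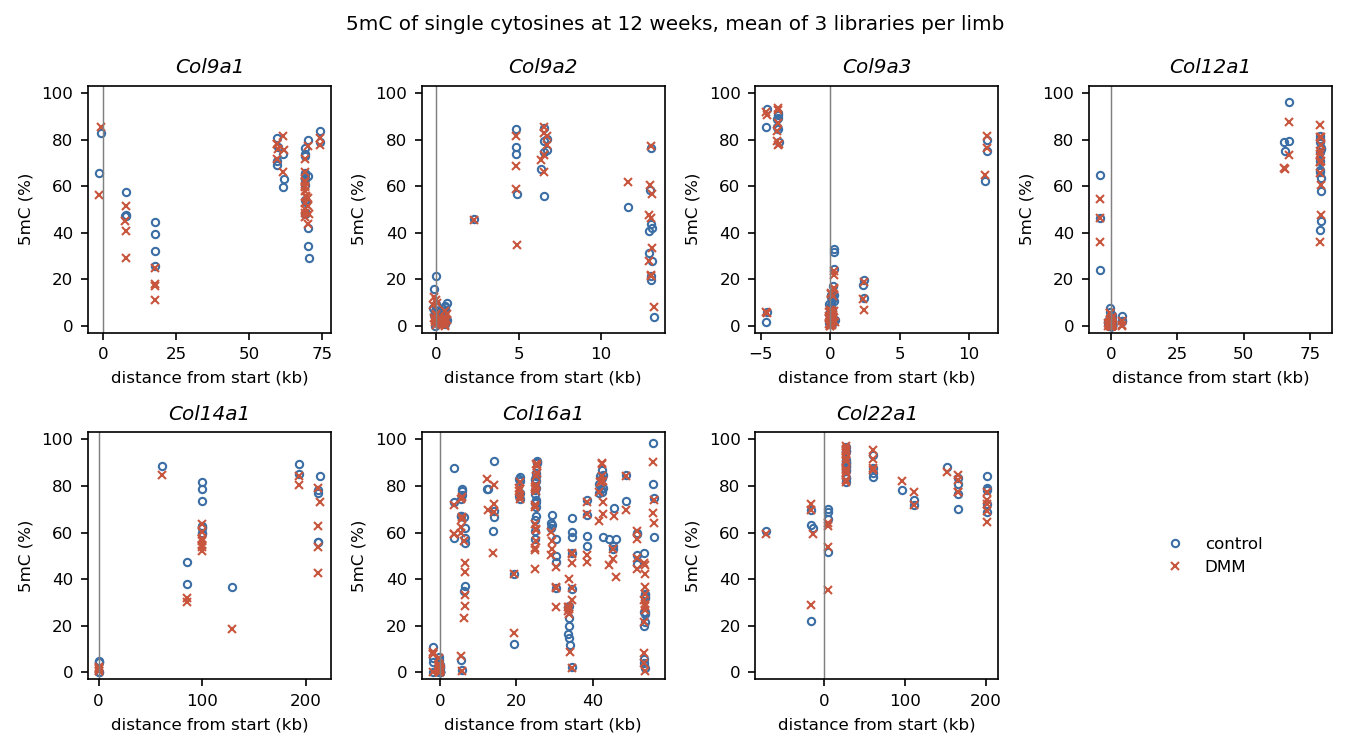
Each panel plots 1 gene at 12 weeks, with the distance of each tested cytosine from the transcript start in kilobases on the horizontal axis and 5mC in percent on the vertical axis. Blue circles are means of 3 control and red crosses means of 3 DMM libraries, and the grey line is the start. The start regions of Col9a2, Col9a3, Col12a1 and Col16a1 lie low, with control means of 1.17% to 8.55%.

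No cytosine of the 7 genes was a differentially methylated cytosine (DMC, a difference of at least 25 points with q under 0.05) at either week. Over the genome 0.000554% of cytosines were DMCs at 4 weeks and 0.227% at 12 weeks. At an unadjusted p under 0.05 in the likelihood ratio test there were 33 of the 462 cytosines (7.14%) at 4 weeks, 12 higher and 21 lower in DMM, where 8.02% of all cytosines had such a p. At 12 weeks there were 70 of the 420 (16.7%), 5 higher and 65 lower, where the share over all cytosines was 9.43%. This test pools the reads of 3 libraries, so its p and q cover the error of counting reads and not the spread between libraries. With that spread allowed for by an overdispersion term, 8 cytosines (1.73%) at 4 weeks and 17 (4.05%) at 12 weeks had an unadjusted p under 0.05, all 17 lower in DMM, beside 0.567% and 1.97% of all cytosines. None of the 7 genes' cytosines then had a q under 0.05, and no DMC was left in the genome at either week. Neighbouring cytosines lie on the same reads, so these counts are not of independent values.

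At 12 weeks 6 of the 420 cytosines had a q under 0.05 on pooled reads with differences under 25 points, 3 in Col16a1, 2 in Col9a3 and 1 in Col12a1. The share over all cytosines by this rule was not taken, so the count has no background beside it. The windows around cytosines of Col9a3, Col14a1 and Col16a1 with low p are shown because they hold the single cytosines described next. They are plus-strand sequence of GRCm38, and capitals mark each CG with a tested cytosine on either strand.
Col9a3, chr2:180598390-180598540: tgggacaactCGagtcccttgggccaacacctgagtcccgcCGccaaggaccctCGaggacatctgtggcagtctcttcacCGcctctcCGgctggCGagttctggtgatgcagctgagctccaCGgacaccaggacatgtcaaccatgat
Col14a1, chr15:55407819-55407939: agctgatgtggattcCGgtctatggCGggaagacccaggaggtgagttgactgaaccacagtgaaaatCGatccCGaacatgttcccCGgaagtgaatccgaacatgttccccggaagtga
Col16a1, chr4:130054346-130054406: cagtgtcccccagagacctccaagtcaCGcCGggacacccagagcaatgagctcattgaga
The Col9a3 window lies in the first intron and holds 8 tested cytosines. That at position 180598480 of chromosome 2, on the reverse strand, measured 32.4%, 32.5% and 30.2% in the control and 13.9%, 18.3% and 14.5% in the DMM libraries. All 3 DMM values lay below all control values, and the difference on pooled reads was -16.7 points (q = 0.0154 for read counting alone, and 0.907 with overdispersion). The forward cytosine of the same CG, at 180598479, overlapped between the limbs, with a difference of -2.86 points (q = 0.922).

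The Col16a1 window lies in a coding exon. The forward cytosine at position 130054376 of chromosome 4 measured 46.0%, 68.4% and 58.3% in the control and 32.4%, 31.4% and 35.2% in the DMM libraries, a difference of -22.5 points (q = 0.0108 for read counting alone, and 0.907 with overdispersion). The control libraries differed widely there. Its reverse partner at 130054377 differed by -7.64 points (q = 0.662). The Col14a1 window runs from a coding exon into an intron and holds 6 tested cytosines, all with a lower pooled value in DMM. The reverse cytosine at position 55407894 of chromosome 15 measured 83.3%, 78.1% and 83.9% in the control and 59.3%, 78.0% and 53.3% in the DMM libraries, a difference of -18.9 points (q = 0.0580 for read counting alone, and at least 0.907 with overdispersion). DMM replicate 2 lay just below the lowest control there.

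Averaged over gene parts, Col14a1 differed most in 5mC at 12 weeks among the 13 parts measured. At 12 weeks the mean over 21 cytosines of its gene body was 57.4%, 56.6% and 57.0% in the control and 48.0%, 49.5% and 49.2% in the DMM libraries. The limbs did not overlap and differed by -8.13 points, against a pooled SD of 0.627 points (exact permutation p = 0.1, the smallest possible). On pooled reads, 9 of the 24 cytosines of Col14a1 had an unadjusted p under 0.05 in the likelihood ratio test, all lower in DMM. They were 8 of 16 intronic and 1 of 7 coding cytosines, where the share over all cytosines of the genome was 9.43%. That p covers read counting error only, and neighbouring cytosines share reads. At 4 weeks, over 19 cytosines, the body measured 58.3%, 47.6% and 53.3% in the control and 51.2%, 44.2% and 48.5% in the DMM libraries, with overlap.

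The gene body of Col16a1, over 92 cytosines, measured 62.9%, 63.1% and 62.3% in the 12-week control and 55.5%, 62.1% and 57.2% in the DMM libraries. The start region of Col9a2 measured 6.72%, 6.28% and 6.98% in the control and 3.43%, 5.66% and 5.02% in the DMM libraries, and that of Col9a3 8.04%, 7.76% and 9.85% against 4.87%, 7.22% and 6.27%. In each of these the DMM libraries lay below all controls, by 4.52, 1.96 and 2.43 points on average.

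Of 13 parts with at least 5 cytosines in the 7 genes and their flanks, 4 did not overlap at 12 weeks, all lower in DMM, where 18.7% of 35730 parts of all genes were lower without overlap and 23.3% did not overlap in either direction. At 4 weeks none of the 13 did, where 9.07% of 36490 did. The median difference of the 13 parts was -1.14 points at 4 weeks and -0.99 points at 12 weeks, beside -0.18 points over all parts at each week. Mean 5mC over all cytosines was also lower in 12-week DMM libraries, at 28.8% to 29.5% against 29.7% to 30.3%.

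The gene body of Col22a1 stayed within its spread, at 78.3%, 78.9% and 78.1% in the control and 77.5%, 78.1% and 78.9% in the DMM libraries at 12 weeks. That of Col9a2 measured 41.2% ± 2.35 in the control and 41.1% ± 1.53 in the DMM libraries, and the start region of Col12a1 1.17% ± 0.179 and 0.844% ± 0.361 (SD, n = 3 each). Col9a1's gene body measured 58.7% ± 1.42 in the control and 55.6% ± 6.15 in the DMM libraries, where DMM replicate 2, at 62.3%, lay above all controls. The groups overlapped in all 4.

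Col9a1 has a second annotated start, position 24195203 of chromosome 1, 17593 bases into the gene, from which a shorter transcript begins. The 250 bases before it held 0 CG. Within 500 bases after it 4 cytosines were tested, and they were picked out after their values were seen, so they are described without a test of their mean. Their mean 5mC at 12 weeks was 31.1%, 33.4% and 41.5% in the control and 15.5%, 18.5% and 18.8% in the DMM libraries. At 4 weeks it was 28.8%, 18.2% and 17.7% against 19.9%, 19.3% and 14.8%. The 12-week DMM libraries lay below all 12-week controls and within the range of the 4-week libraries. Of the 4 cytosines, that at 24195304 had the largest 12-week difference, -21.8 points (q = 0.0853 for read counting alone, and 0.907 with overdispersion). The RNA counts do not separate the transcripts of Col9a1.

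Hydroxymethylation (5hmC) was taken as the percentage in bisulfite-treated DNA without oxidation (BS), which reads 5mC and 5hmC together, minus that of the oxBS library of the same DNA. For DMM replicate 1 at 12 weeks, the deposited BS data carry another replicate number than their label, and the label was followed, so its 5hmC and BS values are less certain than the others. Over all cytosines it measured 1.54, 1.63 and 1.43 points in the 12-week control and 2.35, 1.77 and 2.02 points in the DMM libraries. Col14a1, over 21 cytosines, measured 3.92, 3.57 and 4.27 points in the control and 12.1, 4.69 and 11.7 points in the DMM libraries. Col16a1 measured 3.34, 3.87 and 4.22 against 7.28, 5.26 and 6.24 points, and Col9a3 -0.81, 0.86 and -0.44 against 3.15, 1.26 and 1.55 points. For these 3 genes the limbs did not overlap, with DMM higher (exact permutation p = 0.1 each), and neither did they over all cytosines. DMM replicate 1 held the highest value in each. Without it the limbs still did not overlap for these 3 genes, and the mean difference was 4.29 points for Col14a1, against 5.59 with it, 1.94 against 2.45 for Col16a1 and 1.54 against 2.12 for Col9a3. Among 17528 gene regions 12.2% were higher in DMM without overlap. The other 4 genes overlapped. At 4 weeks all 7 did, where 8.8% of 17617 gene regions did not. A difference of 2 libraries can come out below 0, as for Col9a3. At 12 weeks fewer of the 7 regions separated the limbs with at least 20 reads, and more with read weights. For these settings, and with a library left out, the share over all gene regions was not taken.

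The BS libraries alone, which count both marks, overlapped between the limbs for all 7 genes at 12 weeks, where 23.1% of gene regions did not. Col14a1 measured 57.8% ± 1.56 in the control and 56.0% ± 3.07 in the DMM libraries, Col16a1 50.2% ± 0.205 and 49.9% ± 1.26, and Col9a3 25.7% ± 0.348 and 25.8% ± 0.673 (SD, n = 3 each). The largest difference of the 7 was that of Col9a1, at 66.4% ± 3.38 in the control and 63.1% ± 1.40 in the DMM libraries. For Col14a1, Col16a1 and Col9a3 the lower 5mC and the higher 5hmC at 12 weeks therefore rest on the same oxBS libraries. At 4 weeks, Col9a1 measured 58.9% ± 2.32 in the control and 55.7% ± 0.347 in the DMM libraries and Col9a2 33.8% ± 1.01 and 32.0% ± 0.150, both lower without overlap (exact permutation p = 0.1 each). They were 2 of the 7, where 6.28% of gene regions were lower in the same way.

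**Figure D5:**
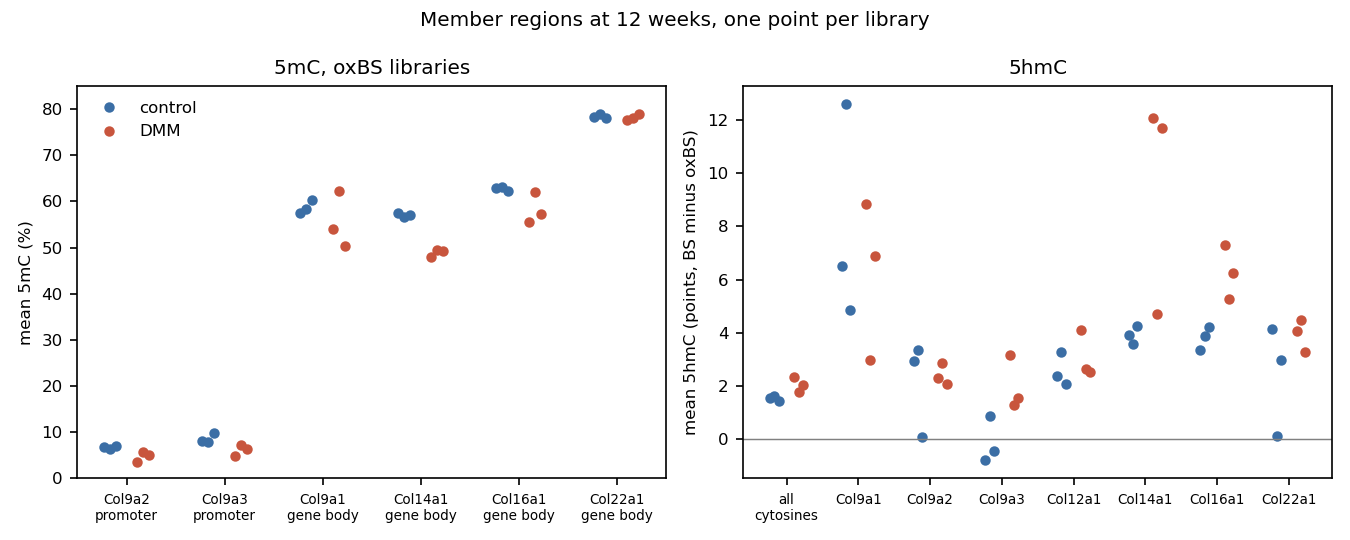
The left panel plots mean 5mC in percent for 6 gene parts and the right panel 5hmC in percentage points for all cytosines and the 7 gene regions, both at 12 weeks, with 1 point per library, blue for control and red for DMM. The 6 parts were chosen from the 13 measured and include all 4 that did not overlap. The Col14a1 gene body separates the limbs most clearly on the left, 56.6% to 57.4% against 48.0% to 49.5%, and Col14a1, Col16a1 and Col9a3 separate them on the right.

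Col14a1 had at 12 weeks a higher mean RNA level in DMM than in control cartilage (12.4 ± 5.71 against 4.11 ± 1.28 CPM) and a lower gene body 5mC, read in different mice. Col16a1 paired 60.8 ± 16.9 against 28.1 ± 12.6 CPM with a lower gene body 5mC. Neither RNA difference passed in edgeR (adjusted p = 0.211 and 0.244). At 12 weeks 18.7% of the parts of all genes were lower without overlap, and the BS libraries overlapped for both genes. A link between RNA and 5mC was not tested. At 4 weeks, when Col12a1 differed most in RNA, its start region measured 1.53% ± 0.603 in the control and 0.875% ± 0.301 in the DMM libraries and its gene body 56.2% ± 0.640 and 56.2% ± 1.86 (SD, n = 3 each), with overlap in both.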

How the data were processed

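RNA counts and cytosine calls of knee cartilage were grouped by limb and week from the labels. For RNA, the authors deposited raw counts per RefSeq transcript, made with STAR on mm10 and featureCounts after adapter trimming. The labels describe poly(A) libraries and the methods SMART-Seq v4 libraries, so the kit and its coverage along long transcripts are uncertain. For DNA, the authors deposited the read count covering each CpG cytosine and the percent of reads with C or T, from MspI-digested BS and oxBS aliquots, without cytosines under 10 reads. Bismark is named in the submitters' processing notes and an in-house pipeline in the methods.

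Here, limbs were compared within each week over all rows with edgeR 4.0.16 (TMM, low-count filter, robust quasi-likelihood test, Benjamini-Hochberg adjusted p under 0.05) in R 4.3.3, with DESeq2 1.42.0 as an alternative. CPM are TMM-scaled. Exonic lengths and names came from RefSeq GRCm38. Col12a1 was named from a table of the study, since its accession is retired, and measured on a current transcript. 5mC was tested per cytosine by a likelihood ratio test on pooled reads with at least 10 reads in all 6 libraries, in Python 3.11.15 with numpy 2.4.6, and adjusted over the genome. Gene part means needed 5 cytosines. For 3 against 3 libraries the smallest exact permutation p is 0.1, and edgeR, DESeq2 and permutation p-values measure the spread between pools. The p and q of single cytosines cover read counting error only, and an overdispersed form of the test was run beside them. The tests were checked on simulated data. The members and lists were chosen with earlier results of these data known. Named are all 7 members, the 4 genes of each list with the smallest p and the 3 genes most correlated with each member. Also named are Col1a1, Col2a1, Comp, Tnmd, Col20a1, Spp1, Ibsp, Thbs4, Chad, Prg4 and the matrilins. Those of them that no rule names were added after their values were seen. Each library was left out in turn, and filters, scaling and thresholds were varied.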

Additional observations from a re-analysis of the deposited data

How the results depend on the processing

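With 3 pooled libraries per limb, RNA and DNA from different mice and the other leg as control, a p above the threshold does not show equal levels. DNA coverage, at a median of 56 and 39 reads per cytosine and library, further limits single cytosines. Of 133 alternative counts of genes or regions, 30 moved by over 1.5 times or to or from 0. Of 780 alternative values of single genes and regions, 738 were unchanged by the rule for their kind. The RNA rule was the same sign and the same call, and 12 RNA values passed where the reported value did not and 10 changed sign. The rule for 5mC and 5hmC was a move within the spread, without a check of sign, and 20 moved by more. The causes were not tested. DESeq2 called 1 of the 7 genes at 4 weeks, 2 at 12 weeks and 1 for control 12 against 4 weeks, and an adjusted p under 0.01 left 1 for DMM 12 against 4 weeks. Leaving out 1 library at a time gave 0 to 0 genes at 4 weeks, 0 to 4 at 12 weeks (4 without control replicate 2), 0 to 1 for control 12 against 4 weeks (1 without 4-week control replicate 3) and 2 to 3 for DMM 12 against 4 weeks (3, with Col9a3, without 4-week DMM replicate 1). DMCs in the 7 genes numbered 1 at a difference of 20 points at 12 weeks. With a library left out they numbered 0 to 2 at 4 weeks (2 without control replicate 2, 1 without DMM replicate 1) and 0 to 2 at 12 weeks (2 without control replicate 2, 1 without control replicate 1). Gene parts that did not overlap numbered 3 with read weights and 0 to 6 with a library left out at 4 weeks (6 without control replicate 2, 4 without DMM replicate 1, 1 without each of control replicate 3 and DMM replicates 2 and 3), and 4 to 7 at 12 weeks (7 without DMM replicate 2). In 5hmC they numbered 2 with at least 20 reads, 1 with read weights and 0 to 1 with a library left out at 4 weeks (0 only without control replicate 3), and at 12 weeks 1 with at least 20 reads, 5 with read weights and 3 to 4 with a library left out. Dropping, after seeing the data, both 12-week DNA samples whose titles have another style (second control, first DMM) gave 0 DMCs and 4 parts. For the counts of parts and regions in all these settings, the share over all genes was not taken. Limbs with fewer libraries also fail to overlap more easily than 3 against 3. The limbs came from the same mice, but no source says that pools of 1 number hold the same mice, and the deviations did not pair the libraries in every number: same-numbered RNA libraries correlated in their deviations from the group means at 0.399, -0.439 and 0.115 at 4 weeks and at -0.681, 0.384 and -0.316 at 12 weeks, and same-numbered oxBS libraries at 0.258, 0.209 and 0.00265 at 4 weeks and at -0.0551, -0.0461 and 0.0378 at 12 weeks. In oxBS at 4 weeks each control library correlated best with its own number, a hint from the data and not the design. With the replicate number as a block, edgeR called 2 genes at 4 weeks (Col9a2, adjusted p = 0.0458, and Col12a1, adjusted p = 0.0328) among 354 rows, against 16 without it, and 0 at 12 weeks among 734 rows, against 1. With the block there was 1 DMC at 4 weeks, and of 13 parts 6 at 4 weeks and 5 at 12 weeks differed in 1 direction in every number, all lower in DMM. The share over the parts of all genes by this rule was not taken. The log2 values that changed sign did so near 0 with a library left out. They ranged from -0.19 to 0.35 for Col22a1 at 4 weeks, from -0.0212 to 1.46 for Col9a1 at 12 weeks, from -0.16 to 0.29 for Col16a1 within DMM, from -0.0283 to 0.53 for the interaction of Col22a1 and from -0.0800 to 0.68 for that of Col14a1, which was -0.00406 with the replicate block.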
